A study of Mus musculus with 24 samples.

Results

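The response difference between 2 mouse epithelial lines is the change in expression that an inflammatory supernatant gave in C57epi.1 minus the change it gave in Bm12.4. It was taken over 16 of the 24 arrays of the study, in 4 groups of 4 named by line and treatment in the labels. The other 8 arrays, of macrophages, did not enter. C57epi.1 was derived from C57BL/6 mice and Bm12.4 from B6(C)-H2-Ab1bm12/KhEgJ mice, whose MHC class II beta chain is mutated, and the upper reproductive tract was the source of both lines. With 1 line per strain, a difference between lines and a difference between strains cannot be told apart. Control monolayers were in RPMI medium. Treated monolayers received RPMI with 33% (v/v) of medium conditioned by an infected epithelial monolayer together with CD4 T cells of a clone specific for Chlamydia, and interferon-gamma was brought to 4 ng/ml. The duration of treatment is not given in the sources used here, and whether replicates were separate cultures is not in the labels, so the p-values reflect the spread among these arrays alone, which may be technical. The comparison asks whether the lines answered the same supernatant by the same amount. A positive response difference is a change that was higher in C57epi.1, and a negative one a change that was higher in Bm12.4. All levels and changes are on the log2 scale, so that 1 unit is a 2-fold difference.

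Interferon-gamma is the main cytokine by which T cells act on cells infected with Chlamydia. Its receptor signals through Jak kinases to Stat factors, which bind sequences called GAS, and Irf factors bind a second kind of sequence, the ISRE. Targets include chemokines that draw T cells, GTPases and enzymes that limit intracellular microbes, the immunoproteasome and the MHC. A second programme that appears below is the unfolded protein response, in which the sensors Ern1, Eif2ak3 and Atf6 of the endoplasmic reticulum (ER) raise chaperones and folding enzymes, in part through a promoter sequence called the ERSE.

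The arrays gave 19938 genes, with array medians of 5 to 5.19 and correlations of 0.967 to 0.9975 between arrays of a group. In media, replicates 1 and 2 stood apart from replicates 3 and 4 in both lines: limma called 4477 genes (22.5%) between these pairs in C57epi.1 and 5959 (29.9%) in Bm12.4. In supernatant it called 716 (3.59%) in Bm12.4 and 0 in C57epi.1, where 1247 (6.25%) had an unadjusted p under 0.05. Over 37 cell cycle genes, the median level on an array was 9.81 to 9.82 in media replicates 1 and 2 of C57epi.1 and 8.97 to 9.09 in replicates 3 and 4. In Bm12.4 media it was 9.51 to 9.56 and 7.15 to 7.52. Counts are therefore also given within each replicate pair, with the values of single genes where a pair moved them by over 1.5 times. The part of the growth state in the results was not tested. Without detection calls, a level at or below the array medians cannot be told from background, so a rise from such a level is given as measured.

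The lines matched their epithelial label only in part. Krt19 was at 10.69 to 12.49 on all 16 arrays. Krt8 was at 8.75 to 9.70 in C57epi.1 and 5.45 to 5.95 in Bm12.4, and Krt14 at 10.77 to 11.33 and 6.90 to 8.82. Epcam was at 3.42 to 3.93 and Cdh1 at 4.14 to 4.68, both below the array medians, while the stromal genes Vim and Col1a1 were at 11.75 or more on every array. The leukocyte genes Ptprc, Csf1r, Itgam and Cd3e were at 5.02 or less on every array. Cd68, which many cell types express in lysosomes, was at 5.57 to 7.60. Response differences were not called for these 12 genes, nor for Krt18, Dcn, Pdgfrb, Acta2 and the endothelial genes Pecam1 and Cdh5. In the longer marker lists, 2 of 12 endothelial genes (Flt1 and Eng) were called negative (16.7%, against 1.15% of all genes). Of 25 leukocyte genes, 1 (Ctss) was called positive (4%, against 1.04%).

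The lines answered by different amounts at 437 of 19938 genes (2.19%), called at an adjusted p under 0.05 in limma's interaction test. Of these, 208 (1.04%) were positive and 229 (1.15%) negative, and 210 (1.05%) reached 2-fold, 123 of them positive (0.617%) and 87 negative (0.436%). The supernatant itself changed 3132 genes (15.7%) in C57epi.1, with 1444 higher (7.24%) and 1688 lower (8.47%), and 1138 (5.71%) in Bm12.4, with 759 higher (3.81%) and 379 lower (1.9%). Changes of at least 2-fold were 478 rises (2.4%) and 230 falls (1.15%) in C57epi.1, and 334 rises (1.68%) and 19 falls (0.0953%) in Bm12.4. All 437 response differences had the same sign in replicates 1 and 2 as in replicates 3 and 4. A called difference is the mean of the 2 pair values, tested against the spread of the same arrays. Agreement in sign is thus largely built into the calls and is no replication. The count was 168 in replicates 1 and 2 alone and 2845 in replicates 3 and 4 alone. With a mean per group and replicate pair it was 3033 (15.2%), which holds all 437. Every group holds both pairs equally, so that fit leaves each response difference unchanged and alters its spread alone. Its hold on the 437 is therefore no independent support.

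**Figure D1:**
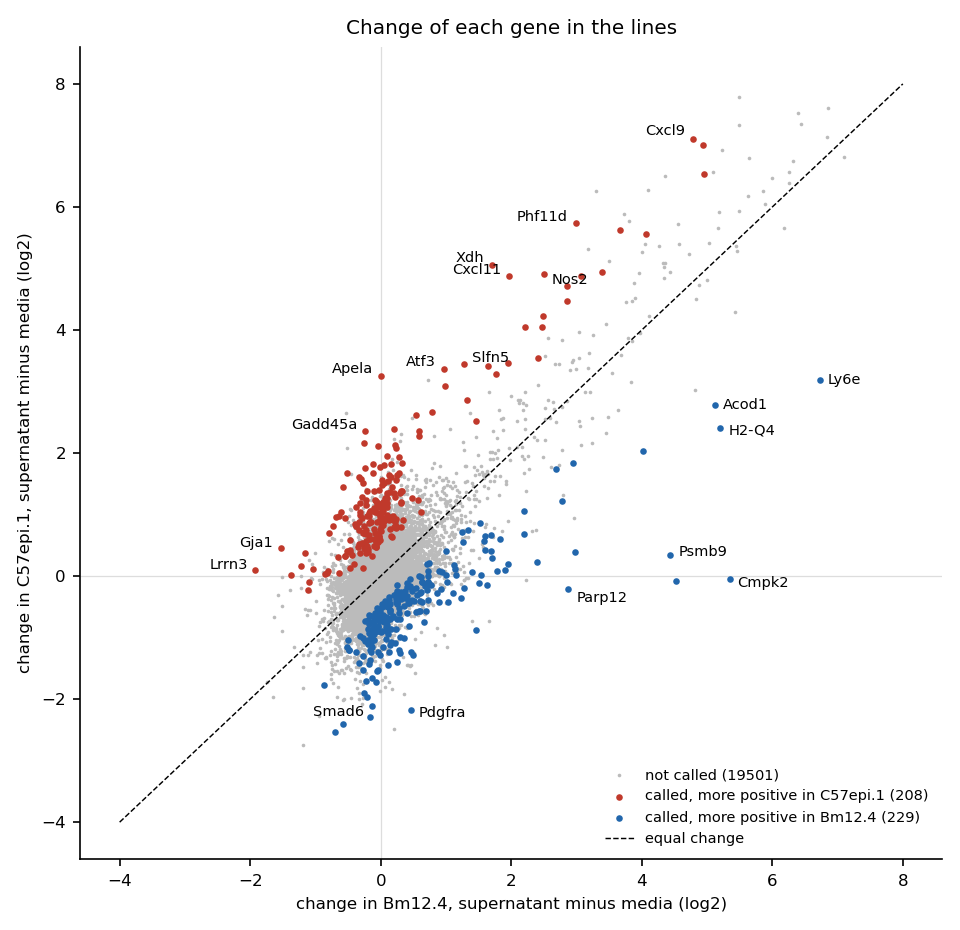
Each point is a gene, with its change in Bm12.4 on the horizontal axis and its change in C57epi.1 on the vertical axis (log2, supernatant minus media, means of 4 arrays). Red points are the 208 called positive and blue points the 229 called negative response differences. Most large rises lay near the dashed line of equal change, Cmpk2 and Psmb9 rose in Bm12.4 alone, and Apela in C57epi.1 alone.

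Most called genes had a called change in 1 line alone. A rise was called in C57epi.1 alone for 151 genes and a fall for 133. In Bm12.4 alone, the same counts were 59 and 18. A further 33 genes rose in both lines and more in C57epi.1, 18 rose in both and more in Bm12.4, and 6 fell in both and more in C57epi.1. Changes of opposite direction were called for 13 genes, 3 of them higher in C57epi.1, and neither line's change was called for 6. A response difference is also the line difference in supernatant minus that in media. The lines differed at 4225 genes (21.2%) in media and 5336 (26.8%) in supernatant. Of the 437, 188 differed between the lines in supernatant alone, 90 in media alone and 159 in both.

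The largest response difference belonged to Cmpk2, a mitochondrial nucleotide kinase of the antiviral programme, which rose in Bm12.4 and had no called change in C57epi.1. Its level was 4.12, 3.75, 3.79 and 3.90 in C57epi.1 media and 3.95, 3.43, 3.75 and 4.21 in C57epi.1 supernatant. In Bm12.4 it was 4.54, 4.27, 5.59 and 5.88 in media and 10.71, 10.38, 10.34 and 10.24 in supernatant. The C57epi.1 groups overlapped completely, and every treated Bm12.4 array lay far above every other array. The rise in Bm12.4 was 5.35, and the response difference was -5.40 ± 0.405 (SE, adjusted p = 4.88e-06). Rsad2, the antiviral enzyme viperin, starts 12762 bases from Cmpk2 on chromosome 12, and the pair is read in opposite directions. Rsad2 rose in both lines, by 6.27 in C57epi.1 and 5.86 in Bm12.4, with a difference of 0.41 ± 0.44 (adjusted p = 0.781). The sequences before both starts are shown because the neighbours parted in C57epi.1. They are from RefSeq on GRCm38.p6, at chr12:26456518-26456617 for Rsad2 (minus strand) and chr12:26469115-26469214 for Cmpk2 (plus strand), and capitals mark an ISRE, searched as GAAANNGAAA on both strands.
Rsad2: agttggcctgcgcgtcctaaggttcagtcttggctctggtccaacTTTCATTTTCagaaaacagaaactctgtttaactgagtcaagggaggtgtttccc
Cmpk2: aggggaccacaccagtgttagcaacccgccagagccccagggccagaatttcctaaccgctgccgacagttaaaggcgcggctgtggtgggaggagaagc
The stretches are not at equal distances: that of Rsad2 covers bases 165 to 66 before its start and that of Cmpk2 bases 100 to 1. Cmpk2 held no such string in these 100 bases or elsewhere within 250 bases before its start. Over that length, 3.46% of 27025 genes held one.

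The immunoproteasome subunits Psmb8 and Psmb9, which replace the standard catalytic subunits and change the peptides offered to MHC class I, had response differences of opposite sign. Psmb9 was at 5.30, 6.19, 5.76 and 5.67 in C57epi.1 media and 6.18, 5.81, 6.18 and 6.14 in supernatant. In Bm12.4 it went from 6.74, 5.98, 7.33 and 7.13 to 10.90, 11.30, 11.39 and 11.34. The C57epi.1 groups overlapped, the Bm12.4 groups lay apart, and the response difference was -4.09 ± 0.346 (adjusted p = 1.8e-05). Psmb8 went from 5.05, 5.15, 4.90 and 5.32 to 8.09, 8.09, 8.36 and 8.24 in C57epi.1, and from 4.78, 4.82, 5.33 and 4.69 to 5.86, 6.11, 5.79 and 5.81 in Bm12.4. It rose in both lines, by 3.09 and 0.99, and the difference was 2.10 ± 0.19 (adjusted p = 2.57e-05). The third inducible subunit, Psmb10, rose by 3.10 in C57epi.1 and 2.40 in Bm12.4 (difference 0.69, adjusted p = 0.278). Psmb9 and the peptide transporter gene Tap1 start 225 bases apart and are read away from each other, and Psmb8 starts nearby on chromosome 17. Tap1 rose in both lines, from 4.17, 4.58, 4.15 and 4.53 to 6.13, 6.84, 7.16 and 6.61 in C57epi.1 and from 7.18, 7.50, 8.08 and 8.22 to 10.96, 11.21, 11.32 and 11.31 in Bm12.4. Its response difference of -1.13 ± 0.327 was not called (adjusted p = 0.0949), and the lines differed by 3.39 in media and 4.51 in supernatant, with Bm12.4 higher. The sequence between the starts of Psmb9 and Tap1 (chr17:34187331-34187555, written along the strand of Psmb9) is shown because the genes on its sides parted in C57epi.1. It held no ISRE and no GAS, searched as TTCNNNGAA, on either strand. The stretch before Psmb8 (chr17:34198052-34198151) holds a GAS, in capitals, as do 8.13% of genes.
Psmb9 to Tap1: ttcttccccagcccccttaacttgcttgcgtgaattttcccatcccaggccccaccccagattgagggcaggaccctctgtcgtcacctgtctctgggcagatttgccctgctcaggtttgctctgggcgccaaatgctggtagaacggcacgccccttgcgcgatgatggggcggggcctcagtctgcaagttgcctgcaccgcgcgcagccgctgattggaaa
Psmb8: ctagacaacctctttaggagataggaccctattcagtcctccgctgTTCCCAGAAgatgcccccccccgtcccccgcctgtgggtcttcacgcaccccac
A string of letters in a window is a description, not a site.

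Further members of the MHC class I list were called in both directions. Of 21 measured members, 2 were called positive (9.52%, against 1.04% of all genes) and 3 negative (14.3%, against 1.15%), with a median of 0.085. H2-Q4, a class Ib gene, rose from 4.01, 3.83, 4.23 and 4.43 to 6.51, 6.37, 6.57 and 6.69 in C57epi.1. In Bm12.4 it rose from 4.48, 3.99, 5.10 and 4.84 to 9.21, 10.02, 9.95 and 10.05, and the difference was -2.79 ± 0.318 (adjusted p = 0.000271). H2 genes resemble each other, so signal may be shared between them. Nlrc5, the transactivator of MHC class I, fell by 0.42 in C57epi.1 and rose by 1.03 in Bm12.4, a difference of -1.46 (adjusted p = 0.000492) that was -3.25 with the mean of its probe sets. The light chain gene B2m rose by 1.37 and 1.20 without a called difference.

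Parp12, Apol10a, Ifi208 and Tnip1 shared the pattern of a rise in Bm12.4 alone. Parp12, an interferon-induced ADP-ribosyltransferase, was at 3.76 to 4.21 on all 8 C57epi.1 arrays, and treated and untreated arrays overlapped. In Bm12.4 it went from 7.73, 7.75, 8.95 and 9.05 to 11.21, 11.21, 11.25 and 11.31. The difference was -3.09 ± 0.342 (adjusted p = 0.000253), and it lay on top of a line difference in media of 4.30. Apol10a, an apolipoprotein L gene, rose by 2.97 in Bm12.4 and had a change of 0.40 in C57epi.1 (adjusted p = 0.177). Tnip1, a brake on NF-kappaB, rose by 1.53 in Bm12.4 and had a change of 0.02 in C57epi.1. Haptoglobin (Hp), an acute phase protein, fell by 0.88 in C57epi.1 and rose by 1.47 in Bm12.4, and media replicates 3 and 4 of C57epi.1, at 6.05 and 6.37, lay above replicates 1 and 2 at 4.87 and 5.19.

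Among genes that rose in both lines and more in Bm12.4, Ly6e led, a membrane protein that restricts entry of some viruses. It went from 8.69, 8.58, 8.09 and 8.09 to 11.51, 11.56, 11.53 and 11.61 in C57epi.1. In Bm12.4 it went from 4.71, 4.46, 5.27 and 5.01 to 11.41, 11.64, 11.76 and 11.57. The lines differed by 3.50 in media and by -0.04 in supernatant (adjusted p = 0.913), so the response difference of -3.54 ± 0.235 (adjusted p = 1.16e-06) came with unequal starts and overlapping treated levels. Acod1, which makes the antimicrobial metabolite itaconate, had media levels that did not differ by the test (adjusted p = 0.512). It went from 4.33, 4.34, 4.53 and 4.87 to 6.53, 7.59, 7.66 and 7.43 in C57epi.1 and from 4.64, 4.81, 4.73 and 4.91 to 10.08, 10.11, 9.98 and 9.43 in Bm12.4, a difference of -2.34 ± 0.31 (adjusted p = 0.000885). Serping1, the inhibitor of the first complement component, rose by 2.03 in C57epi.1 and 4.01 in Bm12.4 from media levels that did not differ between the lines by the test (adjusted p = 0.518).

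**Figure D2:**
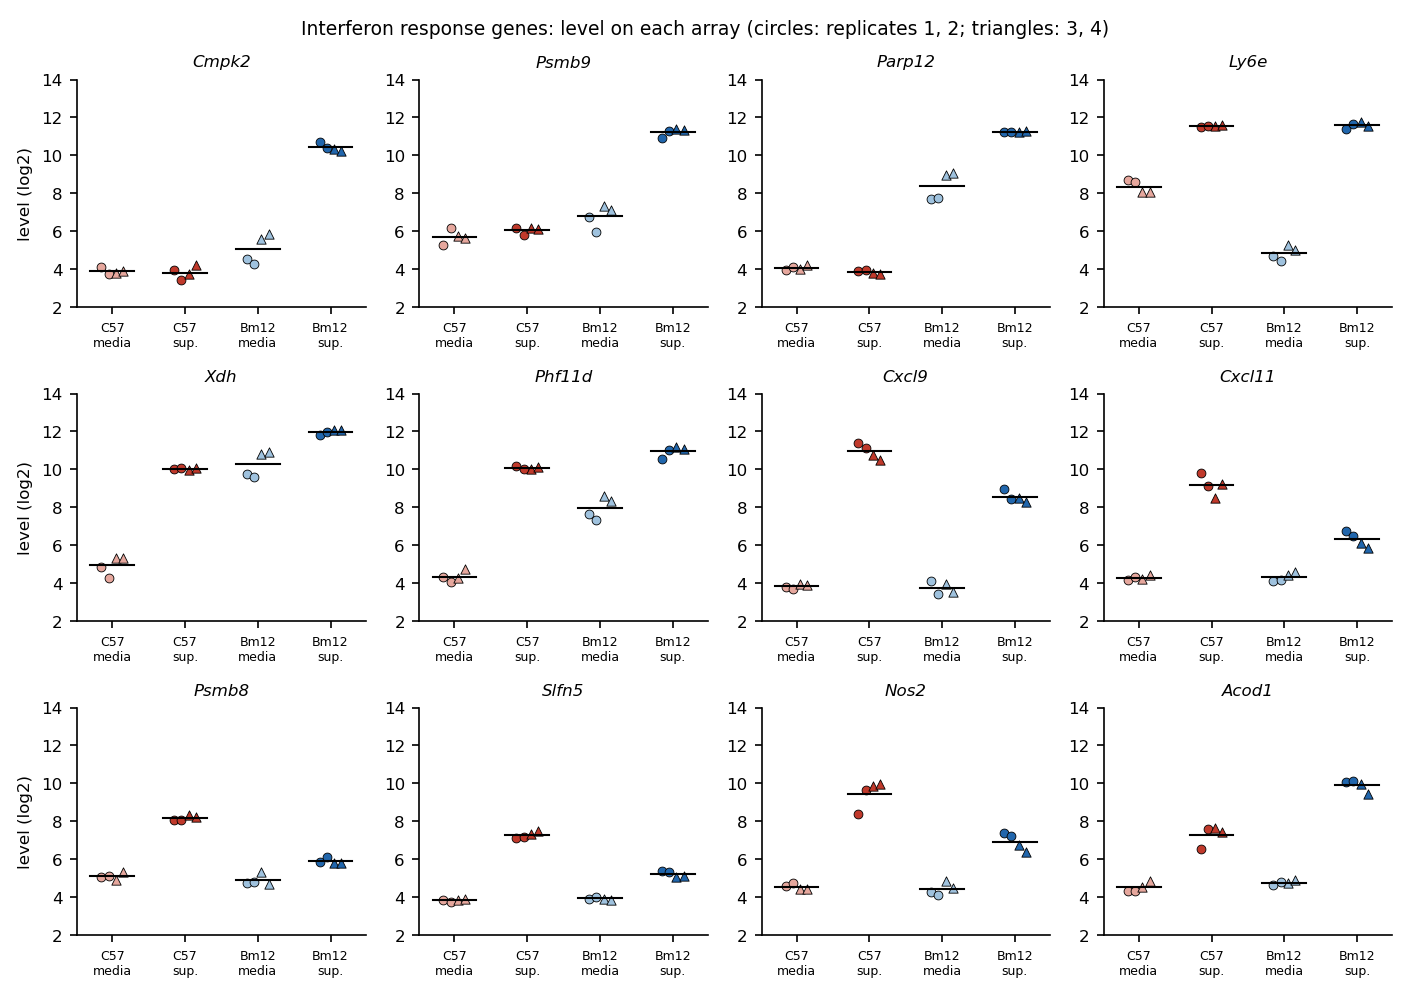
Level (log2) of 12 interferon response genes on each of the 16 arrays, with bars at the mean of 4 arrays, circles for replicates 1 and 2 and triangles for 3 and 4. Cmpk2, Psmb9 and Parp12 moved in Bm12.4 alone, Ly6e ended at overlapping levels from starts 3.50 apart, and Cxcl9, Cxcl11, Psmb8, Slfn5 and Nos2 rose more in C57epi.1 from media levels without a called line difference.

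In the opposite direction, chemokines of the Cxcr3 receptor rose more in C57epi.1. Cxcl11 went from 4.17, 4.32, 4.25 and 4.42 to 9.80, 9.15, 8.47 and 9.24 in C57epi.1 and from 4.12, 4.20, 4.42 and 4.61 to 6.77, 6.48, 6.13 and 5.86 in Bm12.4. No treated arrays of the lines overlapped, the rises were 4.88 and 1.97, and the difference was 2.90 ± 0.33 (adjusted p = 0.000271). Cxcl9 went from 3.79, 3.71, 3.97 and 3.91 to 11.41, 11.11, 10.78 and 10.52, against 4.12, 3.44, 3.94 and 3.56 to 8.97, 8.44, 8.50 and 8.27. Its difference was 2.33 ± 0.276 (adjusted p = 0.00035). Cxcl10, which shares their receptor, rose by 6.48 and 6.00 to levels of 13.44 to 13.86 in both lines, with a difference of 0.48 ± 0.337 (adjusted p = 0.61). Over 30 measured chemokines, 4 were called positive (13.3%, against 1.04% of all genes) and 1 negative (3.33%, against 1.15%), with a median of 0.03. The positive ones also held Ccl5 and Ccl12, and the negative one was Cxcl12. Ccl5 rose by 3.29 and 1.76, but its call (adjusted p = 0.0456) ended when any of 12 single arrays was left out.

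Xdh and Phf11d rose more in C57epi.1 from far lower starts. Xdh encodes xanthine oxidoreductase, an enzyme of purine breakdown. It went from 4.85, 4.30, 5.36 and 5.35 to 10.03, 10.05, 9.95 and 10.06 in C57epi.1 and from 9.75, 9.62, 10.83 and 10.90 to 11.81, 11.96, 12.07 and 12.09 in Bm12.4. The response difference was 3.35 ± 0.391 (adjusted p = 0.000324), while Bm12.4 stayed higher in both conditions, by 5.31 in media and 1.96 in supernatant. Phf11d rose by 5.74 and 2.98, with Bm12.4 higher by 3.62 in media. Over 45 measured type I interferon response genes, 40 rose in C57epi.1 (7.24% of all genes did) and 42 in Bm12.4 (3.81% did). Of these members, 6 were called positive (13.3%, against 1.04% of all genes) and 2 negative (4.44%, against 1.15%). The positive members were Phf11d, Mx2, Bst2, Lgals3bp, Oasl1 and Mx1, and the negative ones Cmpk2 and Parp12. The call of Lgals3bp ended when any of 11 single arrays was left out. The median difference was 0.71, against 0.0025 over all genes, and by pair it was 0.245 for replicates 1 and 2 and 1.06 for the others. With a mean per group and replicate pair, 28 were positive and 4 negative, where 7.13% and 8.09% of all genes were. The list's median level in media was 4.70 to 5.34 over the C57epi.1 arrays, 5.94 to 6.02 in replicates 1 and 2 of Bm12.4, and 7.78 to 7.81 in its replicates 3 and 4. In supernatant it was 10.01 to 10.26 and 10.35 to 10.68. Gbp3, a guanylate-binding GTPase, was at 5.17, 4.61, 8.30 and 8.25 in Bm12.4 media and at 12.01, 12.03, 12.16 and 12.08 in Bm12.4 supernatant, and its response difference by pair was 0.97 for replicates 1 and 2 and 3.62 for the others. Over all arrays it was 2.30 ± 0.895 and was not called (adjusted p = 0.241). Neither Ifit1 (2.17, adjusted p = 0.223) nor Irf7 (1.35, adjusted p = 0.67) was called.

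Mx2, an antiviral GTPase, rose in both lines from media levels that did not differ by the test (adjusted p = 0.365), from 3.04, 2.89, 3.09 and 3.69 to 10.40, 10.21, 10.01 and 10.13 in C57epi.1 and from 3.19, 3.08, 3.92 and 3.68 to 8.40, 8.68, 8.27 and 8.26 in Bm12.4. The difference was 2.08 ± 0.274 (adjusted p = 0.000885). Mx1 behaved alike, with rises of 6.54 and 4.95. The Schlafen gene Slfn5 had the smallest adjusted p of all positive genes named here, at 6.23e-07. It went from 3.85, 3.76, 3.86 and 3.91 to 7.13, 7.19, 7.36 and 7.48 in C57epi.1 and from 3.92, 4.03, 3.93 and 3.87 to 5.38, 5.34, 5.05 and 5.10 in Bm12.4, a difference of 2.17 ± 0.133. Slfn1 rose by 2.38 in C57epi.1 and had a change of 0.21 in Bm12.4 (adjusted p = 0.496). Nos2, the inducible nitric oxide synthase, went from 4.62, 4.76, 4.44 and 4.43 to 8.41, 9.64, 9.88 and 9.96 in C57epi.1 and from 4.29, 4.11, 4.84 and 4.50 to 7.40, 7.23, 6.75 and 6.37 in Bm12.4. Its difference was 2.41 ± 0.422 (adjusted p = 0.00708), at 1.22 in replicates 1 and 2, where it was not called (adjusted p = 0.258, the highest of its alternatives, whose lowest was 5.65e-06), and 3.60 in replicates 3 and 4. Of 20 measured GTPases and effectors, 4 were positive (20%, against 1.04% of all genes) and 1, Acod1, negative (5%, against 1.15%). The sequence before Slfn5 (chr11:82951902-82952001, plus strand) is shown for its ISRE, in capitals.
Slfn5: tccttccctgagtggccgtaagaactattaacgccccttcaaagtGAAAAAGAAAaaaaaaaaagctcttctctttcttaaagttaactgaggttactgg
Among called genes with a promoter window, 14 of 153 positive (9.15%) and 6 of 180 negative ones (3.33%) held an ISRE, and 11 (7.19%) and 16 (8.89%) a GAS.

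Of 24 signalling genes of the interferon pathway, 2 were positive (8.33%, against 1.04% of all genes) and 1 negative (4.17%, against 1.15%). Irf1, the first-wave transcription factor, rose by 3.55 in C57epi.1 and by 2.41 in Bm12.4, and the difference was 1.14 ± 0.268 (adjusted p = 0.0382), whose call ended without any of 11 single arrays. Replicates 1 and 2 gave 0.64 and the others 1.63, and the mean of its probe sets 0.70. Ptpn2, a phosphatase that dampens Jak and Stat signals, rose by 0.92 in C57epi.1 alone, with a difference of 0.72 that was 0.45 in replicates 1 and 2 and 0.40 with the mean of its probe sets. Tyk2, a Jak kinase, fell by 0.44 in C57epi.1 and had a change of 0.44 in Bm12.4 (adjusted p = 0.0768). The calls of Ptpn2 and Tyk2 each ended when any of 7 single arrays was left out.

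The mutated gene of the Bm12.4 strain belongs to the MHC class II. Ciita, the master regulator of these genes, rose by 2.39 and 2.22 (difference 0.17, adjusted p = 0.816). H2-Ab1, the beta chain gene that carries the bm12 mutation, went from 4.79, 4.51, 4.61 and 4.51 to 7.37, 7.85, 7.75 and 7.55 in C57epi.1 and from 4.02, 4.25, 4.23 and 4.19 to 7.16, 9.18, 10.04 and 9.56 in Bm12.4. Replicate 1 of the treated Bm12.4 arrays lay lowest, and the difference was -1.79 ± 0.584 (adjusted p = 0.148). Without that array it was -2.40 with an adjusted p of 8.6e-05, within a range of 6.19e-05 to 0.603 over the alternatives. H2-Aa (difference -0.18) and Cd74 (0.77) were not called. Ctss, a protease that trims the invariant chain, was the 1 called member of 15 (6.67% positive, against 1.04% of all genes). It rose by 3.46 and 1.94, with a difference of 1.52 ± 0.28 (adjusted p = 0.0099). The T cell inhibitory ligand gene Cd274 rose by 4.84 and 4.33, and Ido1, which depletes tryptophan, had changes of 1.56 and 0.75, neither with a called difference (adjusted p = 0.39 and 0.173). In Bm12.4 supernatant, Ido1 was at 4.99 in replicate 1 and at 4.08 or less on the other arrays, all below the array medians.

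Genes of the unfolded protein response rose in C57epi.1 and hardly in Bm12.4. Of 34 measured members, 12 were called positive (35.3%, against 1.04% of all genes) and 0 negative. This list was written after values were seen, so its count is no independent evidence. In C57epi.1, 21 rose (7.24% of all genes did) and 1 fell (8.47% did). In Bm12.4, 1 rose (3.81% of all genes did) and 2 fell (1.9% did). The median difference was 0.824, at 0.702 in replicates 1 and 2 and 0.993 in replicates 3 and 4. Hspa5, the chaperone BiP, went from 11.84, 11.99, 11.68 and 11.77 to 12.64, 13.20, 13.15 and 13.02 in C57epi.1. In Bm12.4 it was at 12.37, 12.26, 11.65 and 11.62 in media and 12.04, 11.75, 11.33 and 11.52 in supernatant. The treated C57epi.1 arrays lay above all others, the Bm12.4 groups overlapped, and the difference was 1.50 ± 0.268 (adjusted p = 0.00824). Herpud1, which serves the degradation of misfolded ER proteins, went from 10.73, 9.68, 10.08 and 10.18 to 10.94, 11.92, 11.93 and 11.65, against 10.01, 9.67, 8.91 and 9.08 and 9.32, 8.99, 8.48 and 8.59 in Bm12.4, a difference of 2.02 ± 0.41 (adjusted p = 0.0186). Creld2, an ER folding factor, had a difference of 2.42 ± 0.515 (adjusted p = 0.0229). The sensor gene Atf6 (1.47), the eIF2 alpha phosphatase subunit Ppp1r15a (1.78), the folding factors Sdf2l1 (1.89), Manf (1.51), Pdia4 (1.19), Hsp90b1 (0.98) and Calr (1.53) and the cochaperones Dnajc3 (1.08) and Dnajb9 (1.14) complete the 12.

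In each of these 12 genes, replicate 1 was the lowest of the 4 treated C57epi.1 arrays, and all 4 lay above all C57epi.1 media arrays. Without that array, 16 were called positive. The list count ranged from 4 to 16 over the omissions of single arrays, while the positive calls over all genes ranged from 110 to 280. It was 3 in replicates 1 and 2 alone, where 0.396% of all genes were positive, and 22 in replicates 3 and 4 alone, where 6.87% were. With a mean per group and replicate pair it was 20, where 7.13% of all genes were. Leaving out C57epi.1 supernatant replicate 3 or replicate 2 each ended the calls of Herpud1 (adjusted p up to 0.0512), Creld2 (up to 0.0614), Sdf2l1 (up to 0.0673), Calr (up to 0.0572), Manf, Pdia4, Hsp90b1 and Dnajb9. Arrays of other groups mattered too. The single arrays whose omission ended a call numbered 13 for Dnajb9, 10 for Hsp90b1, 9 for Sdf2l1, 7 for Creld2, 5 for Calr and 3 for Pdia4. Hspa5 stayed called under all 28 alternatives.

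The promoters of 5 of these genes are shown because they hold the ERSE, the letters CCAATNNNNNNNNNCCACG, to which NF-Y and Atf6 bind. It was found on either strand within 250 bases before a start in 35 of 27025 genes (0.13%) and in 5 of the 10 called members with a promoter window. Over all called genes with a window, 6 of 153 positive ones (3.92%) and 0 of 180 negative ones held it, the sixth being Alg12. In each sequence, capitals mark the ERSE. The windows are chr2:34771984-34772083 for Hspa5, chr8:84847035-84847134 for Calr (minus strand), chr10:86705595-86705694 for Hsp90b1 (minus strand), chr14:118937786-118937885 for Dnajc3 and chr15:88819479-88819578 for Creld2.
Hspa5: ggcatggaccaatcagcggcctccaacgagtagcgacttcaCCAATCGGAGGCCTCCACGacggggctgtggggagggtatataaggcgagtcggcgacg
Calr: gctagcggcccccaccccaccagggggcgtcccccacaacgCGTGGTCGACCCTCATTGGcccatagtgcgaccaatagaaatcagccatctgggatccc
Hsp90b1: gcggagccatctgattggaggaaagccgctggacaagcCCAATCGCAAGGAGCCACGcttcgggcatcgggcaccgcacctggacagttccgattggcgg
Dnajc3: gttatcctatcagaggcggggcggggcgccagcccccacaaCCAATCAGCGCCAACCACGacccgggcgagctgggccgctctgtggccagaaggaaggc
Creld2: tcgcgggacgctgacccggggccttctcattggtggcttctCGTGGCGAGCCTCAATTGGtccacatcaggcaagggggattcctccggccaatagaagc
In Calr and Creld2 the ERSE lies on the strand opposite to the gene. In the list as a whole, 10 of 29 members with a window held it, among them Canx, Derl3, Ero1b, Pdia6 and Syvn1, whose differences were not called.

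Atf3, a transcription factor induced by many stresses, went from 7.10, 6.64, 7.0 and 7.06 to 9.92, 10.47, 10.61 and 10.29 in C57epi.1 and from 7.35, 7.46, 8.06 and 6.51 to 8.58, 8.14, 8.42 and 8.09 in Bm12.4. It rose in both, by 3.37 and 0.96, and the difference was 2.41 ± 0.353 (adjusted p = 0.00206). Gadd45a, a growth arrest gene, went from 7.77, 6.39, 7.40 and 7.54 to 8.98, 10.08, 9.80 and 9.69 in C57epi.1 and had a change of -0.24 in Bm12.4, a difference of 2.60 ± 0.44 (adjusted p = 0.00559). Of the 26 growth arrest and p53 target genes to which it belongs, 2 were positive (7.69%, against 1.04% of all genes). The other was Mdm2, whose call ended when any of 10 single arrays was left out. In that list 1, Gas1, was negative (3.85%, against 1.15%), and the median was 0.05. Fgf21, a hormone gene induced through Atf4, had a difference of 1.56 (adjusted p = 0.000913). With Atf3 it was 1 of 2 called positive (7.14%, against 1.04% of all genes) among 28 serine, one-carbon and Atf4 target genes. Their median was 0.818, and 18 were positive with a mean per group and replicate pair (7.13% of all genes were). Of 31 AP-1 and MAP kinase feedback genes, also listed after values were seen, 4 were positive (12.9%, against 1.04%) and 0 negative. They were Atf3, Phlda1, the growth factor gene Hbegf and the feedback inhibitor Spry1, whose difference of 0.87 was 0.56 in replicates 1 and 2 and whose call ended when any of 6 single arrays was left out. Among 29 Nrf2 and oxidative stress genes, 3 were positive (10.3%, against 1.04%) and 0 negative. Heme oxygenase (Hmox1) went from 10.13, 8.94, 9.99 and 10.24 to 11.36, 12.17, 12.21 and 12.06 in C57epi.1 and was at 9.21 to 9.83 on all Bm12.4 arrays, a difference of 1.91 ± 0.352 (adjusted p = 0.0099). Gclm, a subunit of the first enzyme of glutathione synthesis, rose by 1.68 in C57epi.1 alone. The remaining positive member was Gsta3, whose call ended when any of 13 single arrays was left out. Apela, which encodes a peptide ligand of the apelin receptor, rose from 3.53, 3.28, 4.09 and 4.71 to 6.70, 7.92, 7.11 and 6.91 in C57epi.1 and was at 2.83 to 3.12 on all Bm12.4 arrays, a difference of 3.26 ± 0.386 (adjusted p = 0.00035). Pfkfb3, a driver of glycolysis, rose by 1.83 in C57epi.1 alone, where its media level was lower than in Bm12.4 (line difference -1.50). In supernatant the lines did not differ by the test (adjusted p = 0.156). Its response difference was 1.31 in replicates 1 and 2 and 2.58 in the others.

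**Figure D3:**
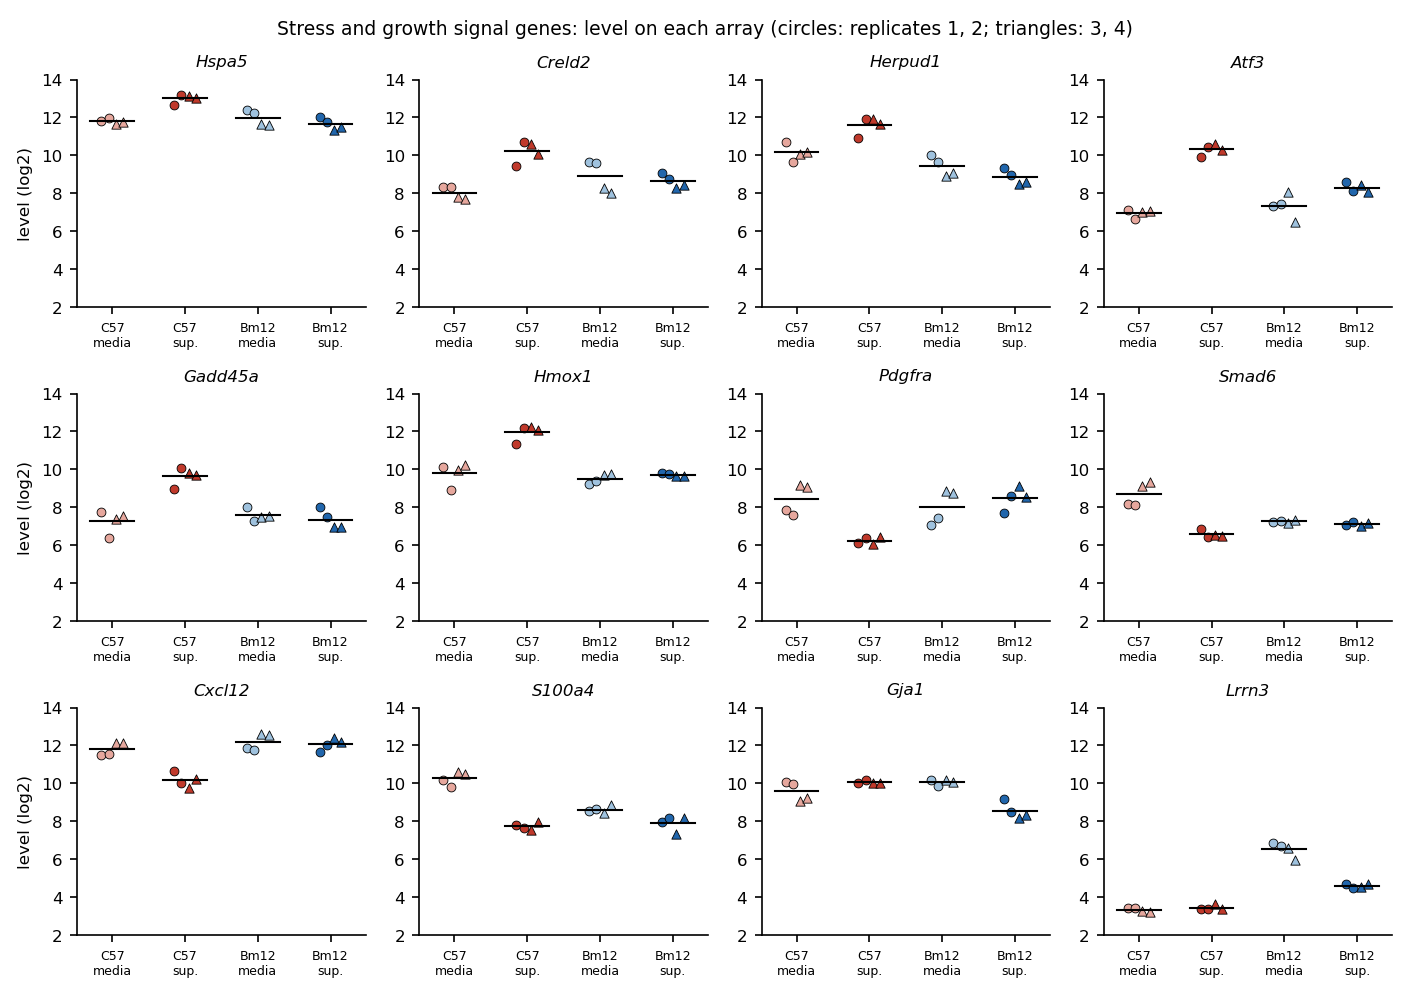
Level (log2) of 12 stress, growth factor and matrix-related genes on each of the 16 arrays, with bars at the mean of 4 arrays, circles for replicates 1 and 2 and triangles for 3 and 4. Hspa5, Creld2, Herpud1, Gadd45a and Hmox1 rose in C57epi.1 alone, Pdgfra, Smad6 and Cxcl12 fell in C57epi.1 alone, and Gja1 and Lrrn3 fell in Bm12.4 alone. In C57epi.1, Lrrn3 lay below the array medians, where a fall may go unseen.

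The 133 genes with a fall called in C57epi.1 alone were led by Pdgfra, Clip3 and Smad6. Smad6, an inhibitor of bone morphogenetic protein signals, went from 8.18, 8.14, 9.13 and 9.34 to 6.84, 6.43, 6.56 and 6.49 in C57epi.1 and was at 7.02 to 7.36 on all Bm12.4 arrays. Its difference was -1.98 ± 0.306 (adjusted p = 0.00291). Gas1, a growth arrest gene and Hedgehog co-receptor, fell by 1.73 in C57epi.1, with a difference of -1.65 ± 0.197 (adjusted p = 0.00035). Pdgfra, a receptor of platelet-derived growth factor, went from 7.87, 7.59, 9.17 and 9.10 to 6.12, 6.38, 6.08 and 6.44 in C57epi.1. In Bm12.4 it was at 7.07, 7.46, 8.86 and 8.75 in media and 7.72, 8.61, 9.13 and 8.53 in supernatant, and the difference was -2.64 ± 0.614 (adjusted p = 0.0353). Cxcl12, the stromal ligand of Cxcr4, fell by 1.66 in C57epi.1, with a difference of -1.52 (adjusted p = 0.0314). In Pdgfra, Clip3 and Cxcl12, media replicates 3 and 4 lay above 1 and 2 in C57epi.1. The calls of Pdgfra and Clip3 each ended when any of 11 single arrays was left out, with adjusted p up to 0.0834 and 0.0739, and that of Cxcl12 when any of 10 was. S100a4, a calcium-binding protein of motile cells, fell in both lines, from 10.18, 9.80, 10.62 and 10.49 to 7.79, 7.63, 7.57 and 7.96 and from 8.54, 8.66, 8.43 and 8.84 to 7.95, 8.17, 7.33 and 8.20. Its difference was -1.83 ± 0.277 (adjusted p = 0.00251), and Deptor, an inhibitor of mTOR, had the same pattern with falls of 1.77 and 0.87.

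Fewer genes fell in Bm12.4 alone. Lrrn3, a leucine-rich repeat membrane protein, was at 3.22 to 3.66 on all C57epi.1 arrays and went from 6.85, 6.72, 6.62 and 5.95 to 4.71, 4.49, 4.57 and 4.69 in Bm12.4, a difference of 2.03 ± 0.215 (adjusted p = 0.000172). Its C57epi.1 levels lay below the array medians, where a fall may go unseen, so a fall in Bm12.4 alone cannot be told from a floor in C57epi.1. Gja1, the gap junction protein connexin 43, went from 10.18, 9.88, 10.16 and 10.09 to 9.18, 8.51, 8.19 and 8.33 in Bm12.4 and was at 9.06 to 10.17 on all C57epi.1 arrays, a difference of 1.98 ± 0.318 (adjusted p = 0.00377). In Gja1, media replicates 3 and 4 of C57epi.1, at 9.06 and 9.25, lay below the other C57epi.1 arrays, and the difference was 1.24 in replicates 1 and 2 (adjusted p = 0.0897 in that pair alone) and 2.73 in replicates 3 and 4. Elastin (Eln) fell by 1.04 in Bm12.4 alone, a call that ended without C57epi.1 supernatant replicate 3 (adjusted p = 0.0541). Its mean in media was 5.41 in C57epi.1, close to the array medians, and 9.11 in Bm12.4.

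In the remaining lists, few members were called. Cytokines and their antagonists had 0 calls of 39 members, and Il6 rose by 2.10 and 2.09 with a difference of 0.00 ± 0.322. Of 34 NF-kappaB targets, 2 were positive, Traf1 and Cebpb (5.88%, against 1.04% of all genes). The 3 negative ones were Tnip1, Hp and Icam1 (8.82%, against 1.15%), and the call of Icam1 ended when any of 12 single arrays was left out. In the pattern recognition list, Tlr2 alone was called of 33 (3.03% negative, against 1.15% of all genes). It rose by 1.70 in Bm12.4 and had a change of 0.29 in C57epi.1, which was 0.95 in replicates 1 and 2 and -0.36 in the others. Its call ended when any of 10 single arrays was left out. Cell cycle genes had 0 calls of 37, a median of -0.587 (replicates 1 and 2 alone -0.16, replicates 3 and 4 alone -1.02), and 25 negative calls with a mean per group and replicate pair, where 8.09% of all genes were negative. Collagens and matrix genes had a median of -0.288 with 1 call of 45 (2.22% positive, against 1.04% of all genes), and 16 negative calls in that alternative. Epithelial, T cell, mesothelial and smooth muscle lists had 0 calls. The called members of the endothelial list, Flt1 and Eng, encode receptors that other cells also express. The difference of Eng was -1.31, and -0.70 in replicates 1 and 2. Its call ended when any of 13 single arrays was left out, and that of Flt1 without C57epi.1 supernatant replicate 3. The defining genes Pecam1 and Cdh5 were at 4.21 or less on all arrays.

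**Figure D4:**
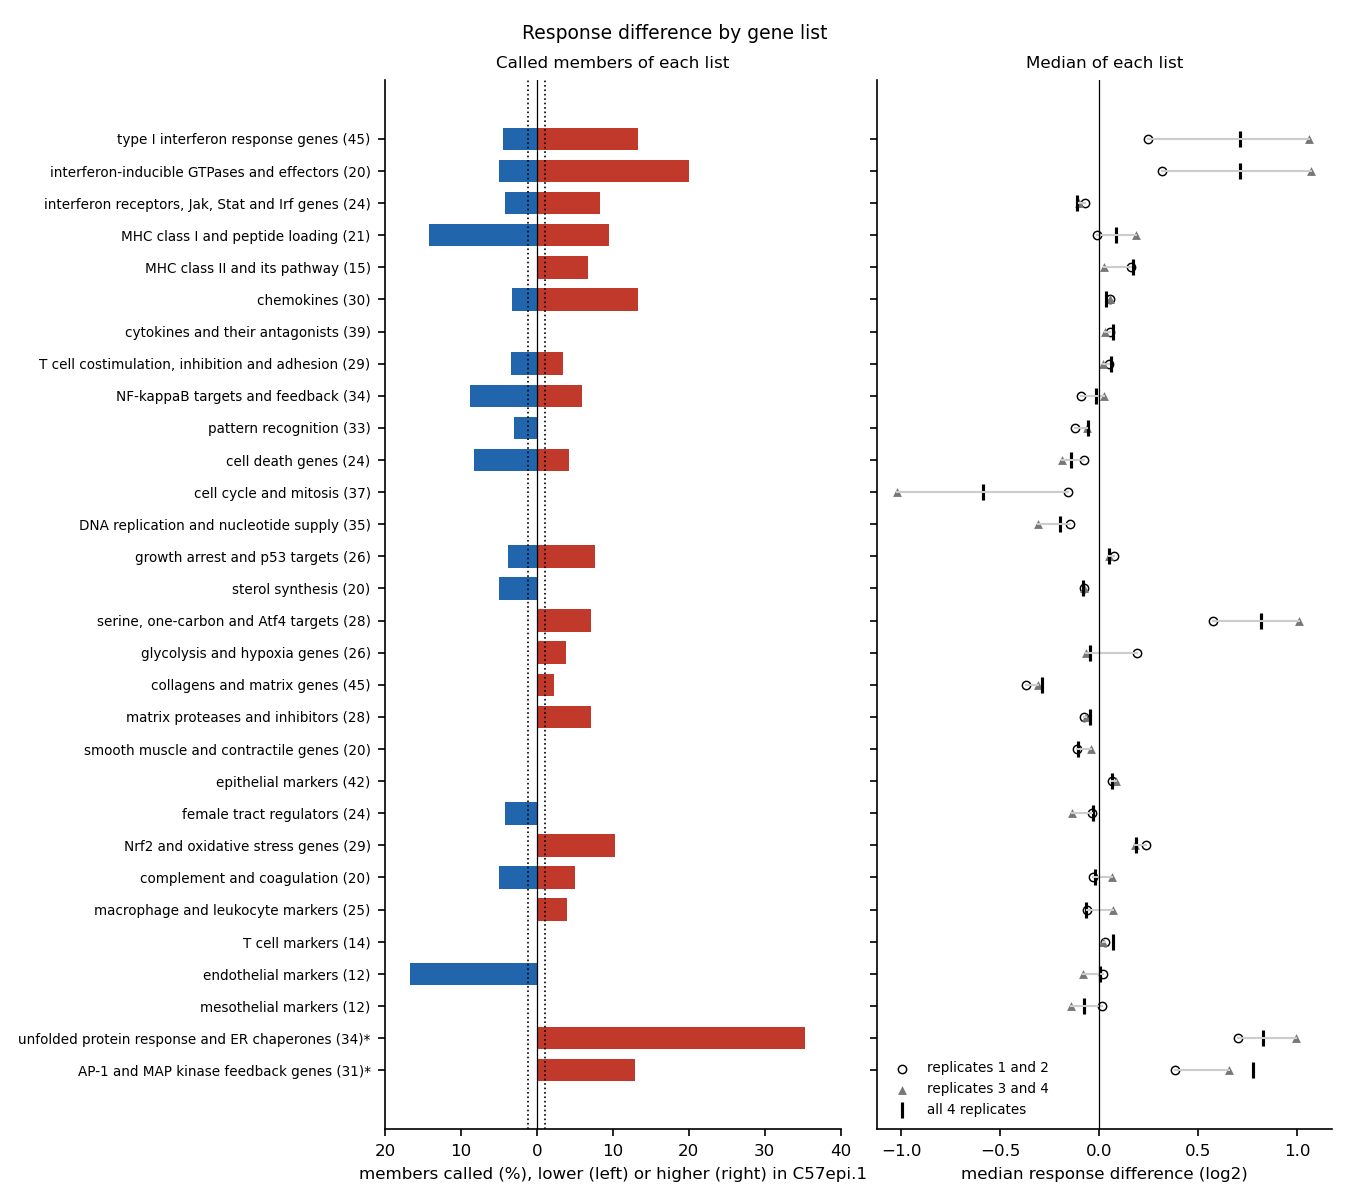
Left, share of measured members (number in brackets) with a called negative (blue, drawn leftward) or positive (red) response difference in each of 30 gene lists, with dotted lines at the shares over all genes (1.15% and 1.04%). Right, median response difference (log2) of each list over all 4 replicates, in replicates 1 and 2 and in replicates 3 and 4; the unfolded protein response list reached 35.3% positive, and lists with an asterisk were written after values were seen.

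The response difference itself differed between the replicate pairs at 38 genes (0.191%), 24 of them (0.12%) more positive and 14 (0.0702%) more negative in replicates 3 and 4, and 1433 genes (7.19%) had an unadjusted p under 0.05. Of the genes named by rule, Gbp3 (0.97 against 3.62) and Clip3 (-1.31 against -2.93) were among them. Of the 79 named genes with a call, 48 stayed called without each of the 16 arrays in turn, and 32 under all 28 alternatives. A further 15 lost the call in replicates 1 and 2 alone and nowhere else. The 32 hold Cmpk2, Psmb9, Psmb8, Ly6e, Parp12, H2-Q4, Acod1, Cxcl9, Cxcl11, Mx2, Slfn1, Slfn5, Xdh, Apela, Atf3, Gclm, Smad6, S100a4 and Lrrn3.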

How the data were processed

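Total RNA (100 ng, biotin label) was measured on Affymetrix whole-transcript arrays. Per the submitters' processing notes, the authors used GCOS, Partek 6.2 and RMA, and deposited 1 log2 value per probe set. Further versions, and the order in which steps were run, are not stated there. Of 28853 probe sets, 21789 had 1 gene symbol in the platform annotation, and 21698 of their gene IDs were in RefSeq (GRCm38.p6). The 1621 with several and 5443 with none were kept apart. For 999 symbols with several probe sets, the one of highest mean was kept, which gave 19938 genes. Without detection calls, low levels and background cannot be told apart.

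The 16 line arrays were fitted in limma 3.58.1 (R 4.3.3, statmod 1.5.0) with lmFit and eBayes, a mean per group and no covariate, with 12 residual and 3.02 prior degrees of freedom. Tests were two-sided, with Benjamini-Hochberg adjustment over the 19938 genes and calls under 0.05. The number of arrays, 4 per group, limits the precision. Alternatives were the arrays in the fit, a replicate block or pair term, each replicate pair alone, array weights, normalization, filters, probe set choice and the omission of each array. The script was tested on simulated data.

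Genes were named by a rule: the 10 largest called differences each way with 1 sign in both replicate pairs, the 3 largest per response class, 2 to 4 per list described, and a fixed set of interferon genes. Predicted, histone, receptor and immunoglobulin segment genes were passed over. 1 more gene that the rule names is not reported here. The further called members of the interferon, chemokine and unfolded protein response lists, Rsad2, Psmb10, B2m and Alg12 were named after their values were seen. The members and lists were chosen with earlier results of these data known, and 2 lists were added after values were seen. Lists received no test. Promoters are RefSeq windows, matched by symbol for 333 of 437 called genes.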

Additional observations from a re-analysis of the deposited data

Results flagged for a closer look

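The response of C57epi.1 differed from that of Bm12.4 at 437 genes by the interaction test described above. The response difference in turn differed between replicates 3 and 4 and replicates 1 and 2 at 38 genes. Among the genes named by rule, it was more positive in replicates 3 and 4 by 2.65 for Gbp3 and more negative there for Clip3, at -1.62.

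In 20 of 368 sets of 4 arrays of a group (5.43%), 1 array of a named gene lay apart from the others by Dixon's test, and chance alone gives about 5%. The lone array in C57epi.1 media was the highest for Icam1 (replicate 4, 7.95) and the lowest for Ppp1r15a (replicate 2, 6.16). In C57epi.1 supernatant, replicate 1 lay apart for Slc39a10 (9.49, lowest), Tlr2 (8.07, highest), Gas1 (8.36, highest) and Ifit1 (11.61, highest). Replicate 2 was lowest for Psmb9 (5.81) and replicate 3 highest for Lrrn3 (3.66). In Bm12.4 media, the lowest arrays were replicate 1 for Mknk2 (9.86) and replicate 2 for Bcl2 (6.6) and Eln (8.66), and the highest were replicate 3 for Traf1 (4.36) and replicate 4 for Nav1 (6.91). In Bm12.4 supernatant, replicate 1 was lowest for H2-Q4 (9.21) and Ctss (5.53) and highest for Ldlrad3 (8.96), Hbegf (5.93) and Ido1 (4.99). There, replicate 3 was highest for Clip3 (5.06) and replicate 4 lowest for Mknk2 (9.55).

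Outside the gene table, 110 of 7064 probe sets with several symbols or none had a called response difference in limma, 33 of them positive and 77 negative. In the same fit, 590 of all 28853 probe sets were called, 253 positive and 337 negative.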

How the results depend on the processing

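All 437 calls were kept with replicate pair as a term (1206 called) and with 8 means, 1 per group and replicate pair (3033). The pairs are balanced over the groups, so both fits leave each response difference unchanged and alter its spread alone. Calls kept there are no independent support. Array weights also kept all 437 (1807 called, from a fit that stopped short of convergence). All 24 arrays gave 800 calls, with 416 of the 437. Replicates 1 and 2 alone gave 168, with 102 of them, and replicates 3 and 4 alone 2845, with 404. The count ranged from 220 to 683 over the omissions of single arrays, lowest without C57epi.1 supernatant replicate 2. Those omissions kept 219 to 418 of the 437. Other filters, normalizations and probe set choices stayed within 1.5 times. In C57epi.1, the response counted 1816 genes in replicates 1 and 2 alone and 6278 in replicates 3 and 4 alone. In replicates 3 and 4 alone, the Bm12.4 response counted 3695 and the line difference in media 6838. The cause was not tested.

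With the replicate block, 877 genes were called, 434 of the 437 among them. The block too leaves each response difference unchanged and alters its spread alone. Same-numbered arrays of different groups had correlations of -0.144 to 0.683 in their deviations, 20 of 24 over 0.1, with 0.512 to 0.625 between the lines in media. Of 16 arrays, 11 correlated best with their own number, a hint of pairing from the data. The numbers were not taken as a pairing, since the labels state none and not every correlation passed 0.1.

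Of the 79 named calls, 41 were lost in replicates 1 and 2 alone and 31 without C57epi.1 supernatant replicate 3. Omitting replicate 2 or 4 of that group ended 28 or 22, replicates 4 or 3 of C57epi.1 media 27 or 23, replicates 2, 4 or 3 of Bm12.4 supernatant 27, 26 or 25, and replicates 1 or 2 of Bm12.4 media 20 each. No named gene changed direction as a called value. Without detection calls, differences near background could not be limited by signal.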

Other observations

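Small gene families were also read across the lines, chosen after their values were seen and given no test of their own. The HIN-200 family holds interferon-induced sensors and regulators of nucleic acids, and its close members may share signal. Of 10 measured members, 7 rose in each line (7.24% of all genes did in C57epi.1 and 3.81% in Bm12.4). By limma, 3 response differences were called positive (1.04% of all genes) and 1 negative (1.15%). Ifi205 rose by 7.13 in C57epi.1 and 6.84 in Bm12.4, and Ifi206 by 6.39 and 6.25, without a called difference. Ifi213 rose by 5.62 and 3.67 (difference 1.96, adjusted p = 0.000696), and Ifi207 by 4.87 and 3.08 (difference 1.80, adjusted p = 0.000697). Ifi208 rose in Bm12.4 alone, by 2.40, with a difference of -2.16 (adjusted p = 0.00512).

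Of 11 bone morphogenetic protein target genes, 7 fell in C57epi.1 (8.47% of all genes did) and 0 in Bm12.4 (1.9% of all genes did), and 5 response differences were called negative (1.15% of all genes), with a median of -1.07. These genes were picked with their falls in view, so the counts are no independent evidence. Besides Smad6, these were the transcription factor genes Snai1 (-1.49, adjusted p = 0.006), Atoh8 (-1.49, adjusted p = 0.0157), Id2 (-1.65, adjusted p = 0.0262) and Id1 (-1.07, adjusted p = 0.0427). In replicates 1 and 2, Id2 was at -0.83 and Id1 at -0.60. Among 10 ligands of the epidermal growth factor family, 2 response differences were called positive (1.04% of all genes) and 1 negative (1.15%). Hbegf rose by 1.51 and Nrg1 by 0.95 in C57epi.1 alone, and Btc by 1.91 in Bm12.4 alone, with a response difference of -1.15 in replicates 1 and 2 and -2.46 in the others. Ereg also rose in C57epi.1 alone, by 1.20, but its difference of 1.07 was not called (adjusted p = 0.244 in limma). The standard proteasome subunits Psmb5, Psmb6 and Psmb7 had changes of -0.22 to 0.18, and none was called.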
